A study of Rattus norvegicus with 28 samples.

Results

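The members described here are the 200 long noncoding RNA (lncRNA) genes with the most reads in the rat striatum, taken from 7360 rows that the deposited table marks as lncRNA and from 39538 rows in all. They were chosen by the mean over 28 libraries of RPM, a gene's reads per 1000000 assigned reads, so their high levels are the rule and no result. All libraries are from male rats. The transgenic ones carry ΔETorA, human torsinA without the glutamate lost in the movement disorder DYT-TOR1A. TorsinA is an ATPase of the endoplasmic reticulum. There were 6 libraries of transgenic rats with a sciatic nerve crush (TG crush), 8 of transgenic rats left naive (TG naive), 6 of wild-type rats with the crush (wt crush) and 8 of wild-type rats left naive (wt naive). The crush lasted 30 seconds on the right side, and the labels give 12 weeks after injury for every library. The labels give neither strain, age, transgene promoter nor side of the brain. Each library has a number of its own and no other mark of a separate animal, so a p-value here reflects spread among libraries, part of which may be technical.

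An lncRNA is a transcript without a long open reading frame. Some act in the nucleus on chromatin and splicing, some carry microRNAs or small nucleolar RNAs inside their spans, some are read from the start of a protein-coding gene in the other direction, and some hold a short frame for a microprotein. Several are known from neurons: BC1 RNA, made by RNA polymerase III, is carried into rodent dendrites, where it represses translation, and Meg3 is expressed from the maternal copy of an imprinted domain.

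The whole series was sequenced to between 29151455 and 38407359 assigned reads per library, so a count of 0 allows at most 0.103 RPM, for counting error only. Reads of the human TOR1A transcript separated the genotypes, with 102 to 144 RPM in TG libraries and 0 to 0.972 RPM in wt libraries. The 17 markers of striatal spiny projection neurons summed to between 8211 and 16530 RPM per library, and the 8 markers of cortical glutamatergic neurons to between 69.4 and 185 RPM. Slc17a7, a vesicular glutamate transporter of cortical neurons, was above 20 RPM in 5 libraries: 1 TG crush, 1 TG naive and 3 wt naive. In tissue, fewer cells of a type and less RNA per cell cannot be told apart.

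Of the 200 members, 185 carry only a LOC number as symbol. By gene ID 104 were found in the RefSeq annotation GRCr8, where 89 are still lncRNA, 12 are now protein-coding, 2 are pseudogenes and 1 is a transcribed pseudogene. The other 96 keep the name in the table and no role is given to them. Among the 12 now protein-coding are Tmem80 and Ndufb1, a subunit of mitochondrial complex I, and Rhno1, a factor of the DNA damage checkpoint. The 12 are kept here, since the table files them as lncRNA. RefSeq also gives current symbols for several members of either kind. RGD1566401 is Meg3, LOC100910827 is Oip5-as1 (Cyrano, which in mouse drives decay of the microRNA miR-7), LOC102555346 is Mir9-3hg and Linc01158 is Pantr1. LOC106631776 is Mtln, which encodes a mitochondrial microprotein, and LOC100362486 is Silc1.

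Of all members, 6 hold microRNA genes inside their spans, judged by position and not by strand. The mature microRNAs show what a transcript of such a span can be cut into where the strand is the same. They are given 5′ to 3′ from RefSeq GRCr8, with the seed (bases 2 to 8, which pair with targets) in capitals. The mature miR-9a-5p and miR-9a-3p come from both LOC100911992 (Mir9-1) and Mir9-3hg (Mir9-3), miR-100-5p, let-7a-5p and miR-125b-1-3p lie in Lnc215, miR-421-3p and miR-374-5p in Ftx, miR-770-5p in Meg3 and miR-3099 in LOC102547903.
miR-9a-5p: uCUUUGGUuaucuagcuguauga
miR-9a-3p: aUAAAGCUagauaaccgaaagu
miR-100-5p: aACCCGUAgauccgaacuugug
let-7a-5p: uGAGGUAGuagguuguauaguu
miR-125b-1-3p: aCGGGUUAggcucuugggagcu
miR-421-3p: aUCAACAGacauuaauuggg
miR-374-5p: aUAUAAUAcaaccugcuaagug
miR-770-5p: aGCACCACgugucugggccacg
miR-3099: uAGGCUAGaaagagguugggga
The 9 sequences have 9 different seeds. The 2 loci of miR-9a give the same mature sequences, so they share a seed although their hosts lie on chromosomes 2 and 1. The library kit captures messenger RNA, so the mature microRNAs themselves were not measured.

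The promoters of the 3 members with the lowest adjusted p in the comparison below are shown next, as the 250 bases before and the 50 bases after the RefSeq start, with the transcribed 50 bases in capitals (GRCr8, plus strand, chr1:209502647-209502946 for Bc1, chr15:31884908-31885207 for LOC102550180 and chr1:142840176-142840475 for Mir9-3hg).
Bc1: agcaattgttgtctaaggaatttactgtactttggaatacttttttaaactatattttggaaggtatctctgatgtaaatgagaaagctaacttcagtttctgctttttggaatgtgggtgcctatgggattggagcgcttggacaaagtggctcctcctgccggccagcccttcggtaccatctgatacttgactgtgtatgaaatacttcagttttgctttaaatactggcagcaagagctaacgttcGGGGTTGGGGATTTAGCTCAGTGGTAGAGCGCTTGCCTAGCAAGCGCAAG
LOC102550180: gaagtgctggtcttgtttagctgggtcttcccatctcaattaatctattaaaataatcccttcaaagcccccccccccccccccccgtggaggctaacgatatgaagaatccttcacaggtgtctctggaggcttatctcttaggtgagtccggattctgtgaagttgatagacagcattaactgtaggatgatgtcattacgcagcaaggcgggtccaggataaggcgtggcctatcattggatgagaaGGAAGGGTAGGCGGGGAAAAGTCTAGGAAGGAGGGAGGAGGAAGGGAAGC
Mir9-3hg: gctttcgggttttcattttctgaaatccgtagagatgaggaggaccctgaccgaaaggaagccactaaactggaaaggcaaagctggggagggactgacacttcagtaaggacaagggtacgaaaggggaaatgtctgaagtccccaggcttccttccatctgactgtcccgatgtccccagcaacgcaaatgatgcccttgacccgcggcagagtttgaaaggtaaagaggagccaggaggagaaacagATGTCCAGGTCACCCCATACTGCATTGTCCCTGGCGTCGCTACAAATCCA
The capitals of Bc1 open the RNA itself, whose 5′ part derives from a transfer RNA gene and which is the source of the ID repeats scattered through rodent genomes. Such a window was found for 88 members. The cyclic AMP response element TGACGTCA, searched on both strands, was in 4 of these 88 (4.55%) and in 549 of all 27457 genes with a window (1.999%). The E-box CACGTG, the site of the clock factors among others, was in 9 of the 88 (10.2%) and in 1943 of all genes (7.08%). The TATA box letters TATAAA were in 13 of the 88 (14.8%) and in 4192 of all genes (15.3%). None of these 3 was in the windows of the 6 called members that have one, which says only that these letters are not there. The letters CCAAT were in 36 of the 88 (40.9%) and in 10873 of all genes (39.6%), and in 4 of the 6 windows, those of LOC102550180, Bc1, LOC108352150 and Thumpd3-as1.

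The members were read from very unequal levels. Their mean RPM ran from 4.58 to 1021 with a median of 9.09, and 88 members reached 10 RPM and 5 reached 100. The first 2 held 40.3% of all reads of the members, the first 5 held 52.4% and the first 20 held 64.0%. As RPM is not corrected for length, this is an order of reads and not of molecules. The length in the table is the span with introns, which cannot correct it. The order also covers only rows marked as lncRNA. A search by symbol for known lncRNAs found 4 of 10 nuclear, 2 of 13 imprinted, 5 of 18 microRNA host and 9 of 25 neural ones. Those not found could not be placed, and whether they have rows under other names was not tested. The members took 76.8% of all lncRNA reads, and between 0.444% and 0.596% of the assigned reads of a library. Just inside the limit stood LOC100911827 with 4.71, LOC102547443 with 4.59 and LOC100912031 with 4.58 RPM. Just outside were LOC103689920 with 4.57, LOC108349531 with 4.55 and LOC102549756 with 4.54 RPM, so the limit falls where neighbours in the order hardly differ.

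**Figure D1:**
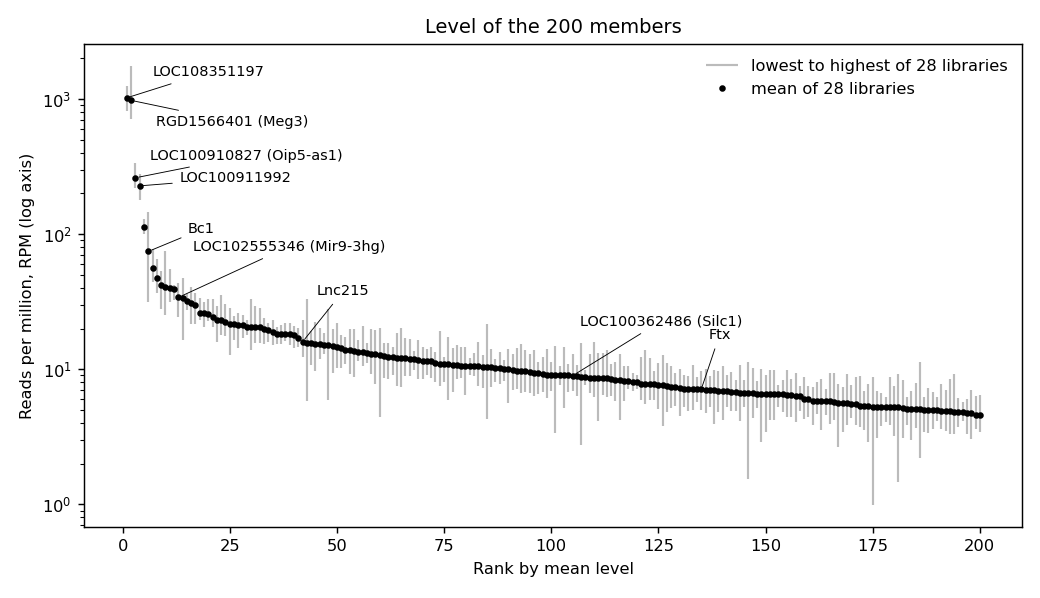
Mean level of each of the 200 members in RPM (log axis) against its rank, with a grey line from the lowest to the highest of the 28 libraries. The first 2 members stand near 1000 RPM, only 5 exceed 100 RPM, and the curve flattens toward 4.58 RPM.

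LOC108351197 (chromosome 6, 31029191 to 31102248, plus strand, Rnor_6.0 as all positions here unless GRCr8 is named) had the most reads, with a mean of 1021 RPM. Its lowest, median and highest values were 818, 964 and 1129 RPM in TG crush, 867, 999.6 and 1108 in TG naive, 899, 966 and 1172 in wt crush and 991, 1134 and 1242 in wt naive libraries. The 4 groups overlapped, and the row has no RefSeq entry and no protein-coding gene within 5000 bp. Meg3 (chromosome 6, 133658937 to 133691130, plus strand) followed with a mean of 977 RPM and with 877, 1078 and 1263 RPM in TG crush, 746, 862 and 1078 in TG naive, 708, 929 and 1033 in wt crush and 793, 929 and 1757 in wt naive libraries. The highest Meg3 value lay in wt naive, and the ranges of all 4 groups overlapped.

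Oip5-as1, LOC100911992 and LOC100911029 completed the members above 100 RPM. Oip5-as1 (chromosome 3, 111397051 to 111410587, plus strand) averaged 285 ± 39.4 RPM in TG crush, 254 ± 25.1 in TG naive, 263 ± 16 in wt crush and 249 ± 19.8 in wt naive libraries (SD, n = 6, 8, 6 and 8). LOC100911992 (chromosome 2, 187573857 to 187596346, plus strand), the span that holds Mir9-1, averaged 221 ± 20.4 RPM in TG crush, 245 ± 29.4 in TG naive, 202 ± 19.7 in wt crush and 235 ± 23 in wt naive libraries. LOC100911029 (chromosome 14, 78814725 to 78828790, minus strand) was among the steadiest members, with a highest library only 1.29 times its lowest.

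The members ranked 6 to 20 lay between 25.6 and 74.5 RPM. They are Bc1, Tug1, LOC103693584, LOC100910455, Miat, LOC103694042, LOC100365289, Mir9-3hg, LOC102550180, Tmem80, LOC103691644, LOC102554253, LOC108351167, LOC102549760 and LOC102552179. Tug1, a nuclear RNA first found for its role in the developing retina, averaged 55.9 RPM, and Miat (Gomafu), a nuclear RNA of neurons that binds splicing factors, averaged 40.5 RPM. Tug1 held 45.5 to 78.1 RPM in TG crush and 45.7 to 65.9 RPM in TG naive libraries, and Miat 35.8 to 53.9 RPM in TG crush and 25.3 to 57.9 RPM in TG naive libraries. Of these 15 members, 4 were called in TG crush against TG naive, described below, where 3.08% of all rows were called: Bc1, Mir9-3hg, LOC102550180 and LOC108351167.

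Most members lie close to protein-coding genes. A protein-coding row overlapped 47 members on the opposite strand and 4 on the same strand, lay within 5000 bp of a further 75, and was absent from that distance for 74. For 47 members the start lay within 1000 bp of the start of a protein-coding gene on the opposite strand, the arrangement of a shared promoter read both ways. Whether the authors counted by strand is not stated, so reads of overlapping genes may be mixed. The pairs LOC100911627 and LOC103693265, with 12.5 and 12.4 RPM, and LOC100911160 and LOC103690159, both with 6.57 RPM, have spans of near-equal length and near-equal levels. The log2 change of LOC100911160 and LOC103690159 in TG naive against wt naive was 0.000561 for both. The rows of a pair may therefore not be separate members. Whether the same reads were counted in both rows or split between them was not tested.

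In transgenic rats 11 members differed between crush and naive: 8 were lower and 3 were higher in TG crush. The lower ones were Bc1, LOC102550180, LOC102551347, LOC102548752, LOC108352150, LOC108349471, LOC100911851 and LOC108351167, and the higher ones LOC108349594, Thumpd3-as1 and Mir9-3hg. The question of this comparison is which genes differ after the injury in rats that carry the transgene. The 11 are 5.5% of the 200 members, and 3.08% of all 18222 rows tested were called (1.08% higher and 2% lower) in the same fit (limma on log2 of RPM + 0.5, Benjamini-Hochberg adjusted p under 0.05). Among the other lncRNA rows 17 of 908 were called. The median log2 change of the members was 0.01, against -0.01 over all rows, and 103 of the 200 members were above 0. The libraries of TG crush and TG naive did not overlap for 4 of the 200 members (2%) and for 133 of all rows tested (0.73%).

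Bc1 (chromosome 1, 218075359 to 218075511, plus strand) held 31.7, 56.2 and 69.9 RPM as lowest, median and highest value in TG crush libraries, against 72.6, 101 and 142 RPM in TG naive libraries. All 6 TG crush libraries lay below all 8 TG naive ones. Its log2 change was -0.89 (SE 0.18, adjusted p = 0.0062), the largest fall of a member. In wild-type rats the values were 43.2, 56.7 and 68 RPM in wt crush and 54.1, 69 and 145 RPM in wt naive libraries, which overlapped. TG naive was thus the group in which Bc1 stood highest by its median. Bc1 is made by RNA polymerase III and the kit captures messenger RNA, so these are captured reads and may not follow its full level. Whether reads of ID repeats fall in its row was not tested.

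LOC102550180 (chromosome 15, 33102491 to 33104050, plus strand) is a short span that begins upstream of Lrp10, a lipoprotein receptor gene on the same strand. It held 16.5, 27.1 and 31 RPM in TG crush against 32, 40.3 and 47.4 RPM in TG naive libraries. Here too the groups did not overlap, and the log2 change of -0.63 (SE 0.11, adjusted p = 0.00182) had the lowest adjusted p of any member. The wild-type medians stood between, with 23.2, 30.2 and 36 RPM in wt crush and 31.6, 35 and 42.7 RPM in wt naive.

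Mir9-3hg (chromosome 1, 141224102 to 141258460, plus strand) hosts miR-9a, the neural microRNA whose sequence is shown above. Its values were 35.4, 36.3 and 43.2 RPM in TG crush against 24.2, 29.8 and 35.1 RPM in TG naive libraries. Every TG crush library exceeded every TG naive one, and the log2 change was 0.35 (SE 0.07, adjusted p = 0.00623). The wild-type groups overlapped, with 33.4, 35.7 and 40.0 RPM in wt crush and 30.2, 34.9 and 39.7 RPM in wt naive libraries, so TG naive was the group that stood low. LOC100911992, the host of the other miR-9a locus in this set, went the other way in sign, with -0.14 (SE 0.08, adjusted p = 0.333), and did not pass the test.

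LOC108351167 (chromosome 6, 8864198 to 8884481, minus strand) lies 2249 bp from Six3, which encodes a homeodomain factor of the forebrain, on the opposite strand. It had 23.1, 24.6 and 25.3 RPM in TG crush against 25.8, 28.3 and 33.8 RPM in TG naive libraries. The TG crush values were tightly grouped and all lay below those of TG naive. With a log2 change of -0.23 (SE 0.05, adjusted p = 0.0112) it was the smallest change among the 11. The call was lost with the compared groups alone (adjusted p = 0.0946).

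The other 5 lower members overlapped between the groups. LOC108352150, antisense to the gene Cacng4, had 4.24, 5.61 and 6.55 RPM in TG crush against 6.43, 8.06 and 9.37 RPM in TG naive libraries. Its log2 change was -0.50 (SE 0.11, adjusted p = 0.0105). LOC100911851 had 5.75, 6.55 and 7.5 RPM in TG crush against 7.32, 7.78 and 8.77 RPM in TG naive libraries, with -0.27 (SE 0.06, adjusted p = 0.0121). In both, 5 of 6 TG crush libraries lay below every TG naive library. The call of LOC100911851 was lost without the 5 libraries with over 20 RPM of Slc17a7 and with the compared groups alone, with an adjusted p of up to 0.102.

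LOC108349471, antisense to the heparanase-related gene Hpse2, had 4.44, 5.21 and 6.2 RPM in TG crush against 5.95, 6.98 and 7.43 RPM in TG naive libraries, with -0.34 (SE 0.09, adjusted p = 0.0257). LOC102548752 starts 67 bp from the zinc finger gene Zfp617 and had 4.03, 4.55 and 5.77 RPM in TG crush against 4.56, 7.29 and 8.53 RPM in TG naive libraries, with -0.53 (SE 0.14, adjusted p = 0.0307). Of the TG crush libraries, 4 of 6 for LOC108349471 and 3 of 6 for LOC102548752 were below all TG naive libraries. The call of LOC108349471 was lost without TG naive 190 or 193 or TG crush 214 or 222, and that of LOC102548752 without TG naive 192 or 193 or TG crush 219, 220 or 222.

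LOC102551347 (chromosome 16, 811953 to 1067031, plus strand) is a span of 255079 bp with 2.22, 3.57 and 5.16 RPM in TG crush against 4.43, 6.38 and 11.3 RPM in TG naive libraries, and a log2 change of -0.81 (SE 0.19, adjusted p = 0.0147). The call was lost when TG crush 222 was left out. Its order of libraries was nearly that of Bc1. Across the 28 libraries, taken as deviations from the group means of log2 (RPM + 0.5), Pearson's r was 0.943 and Spearman's rho 0.914, each with a permutation p of 1e-05, the smallest the 100000 permutations can give (adjusted over 10 relations, 1.7e-05). Without the 2 libraries farthest out in Bc1, r was 0.906. Bc1 was set beside it after their values were seen, and whether reads of Bc1 or of its ID repeats are counted in this span was not tested. The protein-coding row on the other strand, Spin1, had no reads in any library.

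The higher members besides Mir9-3hg were LOC108349594 and Thumpd3-as1. LOC108349594 ends 346 bp upstream of the chromatin remodeller gene Chd2 on the same strand and had 8.88, 12.1 and 13.9 RPM in TG crush against 6.79, 8.7 and 9.85 RPM in TG naive libraries, with 0.42 (SE 0.10, adjusted p = 0.016). Thumpd3-as1 starts 161 bp from Setd5, a gene of chromatin regulation, on the other strand, and had 5.29, 7.14 and 9.36 RPM in TG crush against 4.21, 5.13 and 6.36 RPM in TG naive libraries, with 0.40 (SE 0.10, adjusted p = 0.0324). In each, 4 of 6 TG crush libraries lay above every TG naive library. The call of LOC108349594 was lost without TG crush 214, 220 or 222, and that of Thumpd3-as1 without these or without TG naive 189, 192 or 193. Next in order of p was LOC108352690, 138 bp from Ephx4, with -0.41 (SE 0.12, adjusted p = 0.0501), just outside the threshold.

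**Figure D2:**
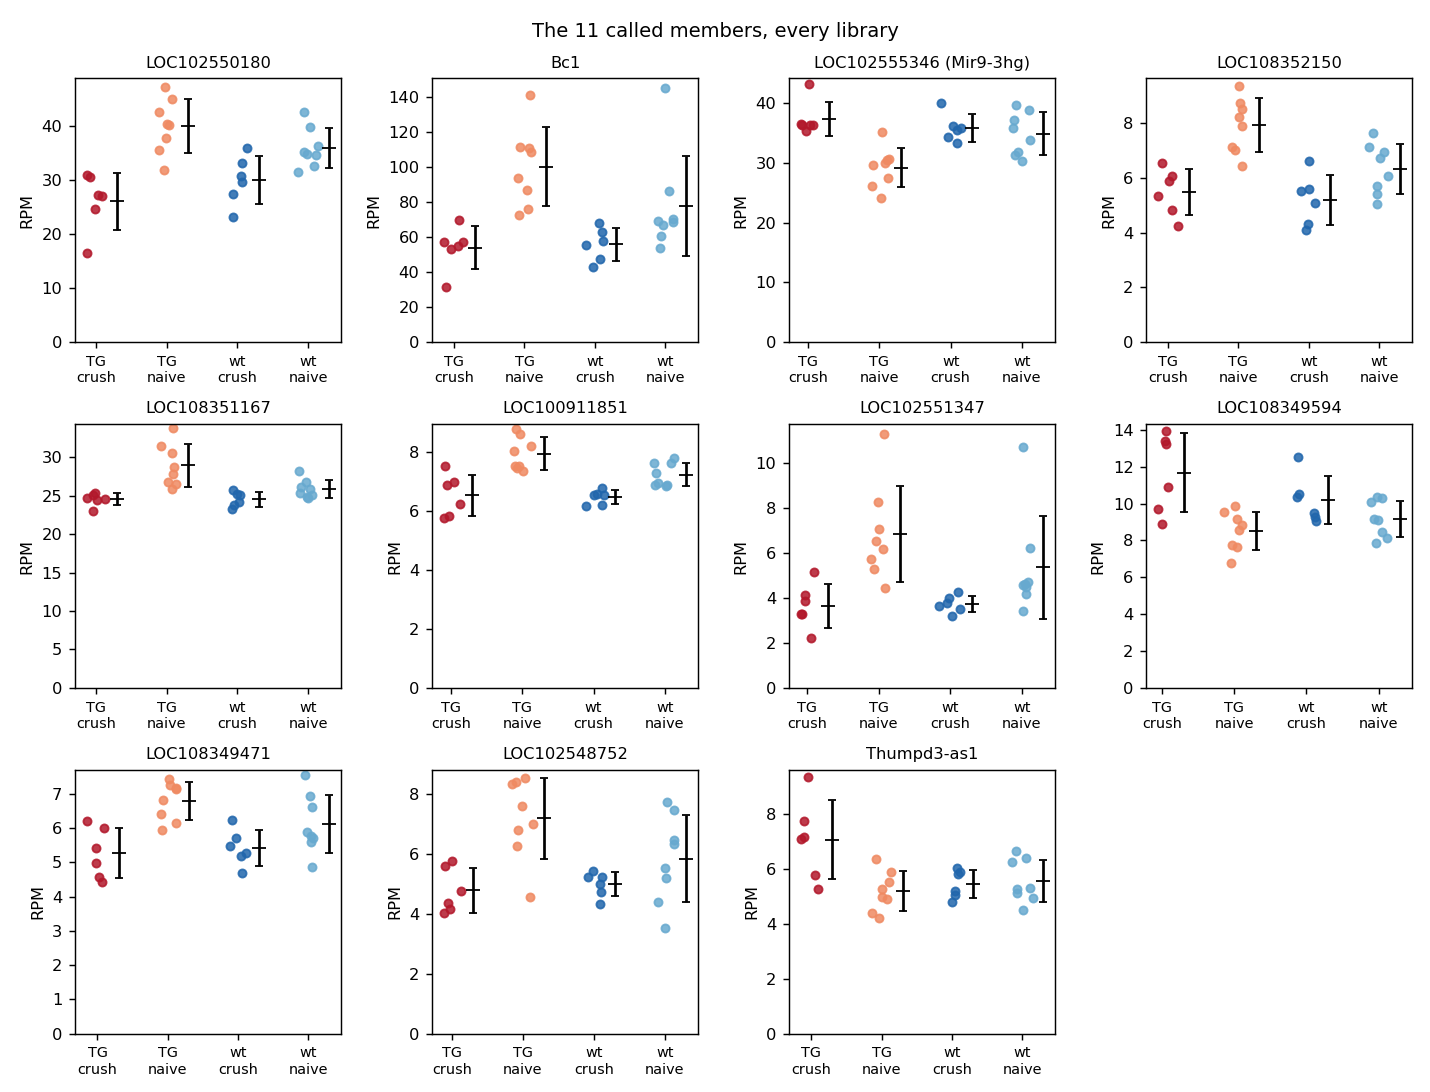
Level in RPM of the 11 called members in every library of TG crush, TG naive, wt crush and wt naive rats, with the mean and SD as a black bar beside the points. For Bc1, LOC102550180, LOC108351167 and Mir9-3hg the points of TG crush and TG naive do not overlap, and for the other 7 members they do. Over all rows tested 0.73% do not overlap.

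The sign of the change was mostly the same in wild-type rats, at smaller size and short of the threshold. All 8 lower members had a negative log2 change in wt crush against wt naive, and 2 of the 3 higher members a positive one. Their adjusted p there ran from 0.172 to 0.934. Of all 200 members, 82 had a positive log2 change in wild-type rats, with a median of -0.04. The 11 were chosen by their calls in TG rats, which alone favours smaller changes in wild-type rats. The 8 lower members were all higher in sign in TG naive than in wt naive, and the 3 higher ones all lower in sign. Both comparisons of TG naive use the same libraries, so these signs are not independent of the calls. In the test of the difference between the genotypes (the interaction), none of the 11 passed, with adjusted p from 0.512 to 0.734.

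Values of other kinds moved with this comparison. The summed level of 16 genes of the circadian clock was 1701 to 2157 RPM in TG crush and 1385 to 1537 RPM in TG naive libraries, and of the 16 genes 12 were called higher and 2 lower. Among 9 markers of endothelium and pericytes 3 were lower in TG crush, with summed levels of 500 to 717 RPM there and 521 to 638 RPM in TG naive libraries, which overlapped, and 1 of 10 microglial markers was lower. The median log2 change was 0.76 over 4 tested blood markers and 0.59 over 5 tested pituitary markers, with none called. The part of these in the changes of the members was not tested. Leaving out the 5 libraries with over 20 RPM of Slc17a7 left 7 calls, without LOC100911851, LOC108349594, LOC102548752 and Thumpd3-as1. A fit on the compared groups alone left 5, without these 4, LOC108351167 and LOC108349471. The share of all rows called in these fits is not given here. With no filter on the rows, the calls of LOC102548752 and Thumpd3-as1 were lost. The calls of Bc1, LOC102550180, Mir9-3hg and LOC108352150 held in each alternative and with each library left out.

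**Figure D3:**
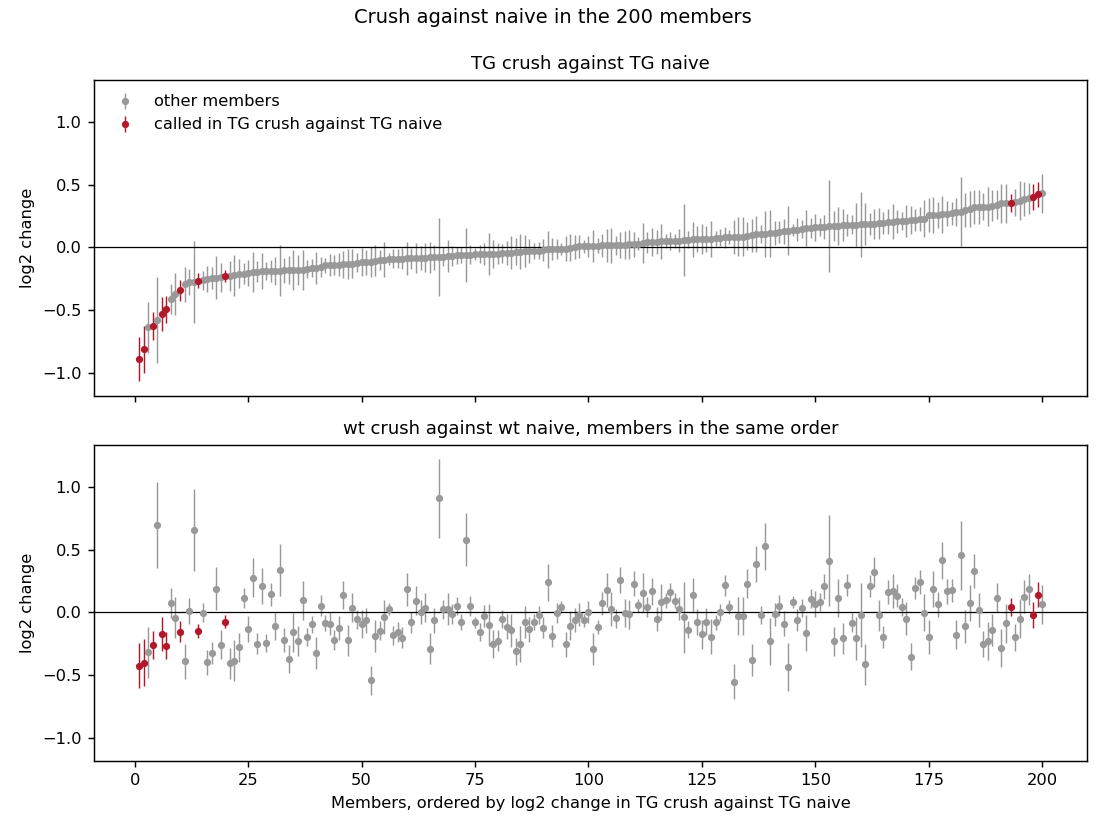
Log2 change with its standard error of each of the 200 members in TG crush against TG naive (top) and in wt crush against wt naive (bottom), in the order of the top panel, with the 11 called members in red. The red points lie toward the ends of the top panel between -0.89 and 0.42, and all 8 that are negative there are negative in the bottom panel.

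No protein-coding neighbour of a called member that could be tested passed the test. A neighbour overlapping or within 5000 bp was on record for 9 of the 11. Of these, 8 were tested and none was called, and Spin1, with no reads, was not tested. Lrp10 averaged 42.3 ± 4.04 RPM in TG crush and 49 ± 3.7 RPM in TG naive libraries (SD, n = 6 and 8), a log2 change of -0.21 (SE 0.07, adjusted p = 0.0868), with the sign of LOC102550180. Oraov1, whose row begins 484 bp beyond the end of Bc1 on the same strand, averaged 15.8 ± 1.03 RPM in TG crush and 15.8 ± 0.588 RPM in TG naive libraries, a log2 change of 0.00 (SE 0.05, adjusted p = 0.989).

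For the antisense pairs, Cacng4 had a log2 change of -0.03 (SE 0.09, adjusted p = 0.906) and Hpse2 one of 0.16 (SE 0.07, adjusted p = 0.18), opposite in sign to LOC108349471. Next to the members that rose, Chd2 had -0.09 (SE 0.05, adjusted p = 0.365) and Setd5 0.01 (SE 0.06, adjusted p = 0.932). Six3 had 0.01 (SE 0.10, adjusted p = 0.984) and Zfp617 0.05 (SE 0.08, adjusted p = 0.804). Over all members, 114 neighbours were tested and 4 were called (3.51%, near the 3.08% of all rows): Cacng2, Msi1 and Prmt2 lower and Ptgis higher, each beside a member that was not called.

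In wild-type rats no member passed the test between crush and naive, by limma on log2 values or by limma-voom on whole reads. The lowest adjusted p of a member was 0.0526, and 0.159% of all 18222 rows were called (0.0384% higher and 0.121% lower). At an unadjusted p under 0.05 there were 55 members (27.5%), against 20.8% of all rows. The 5 members of lowest p were all lower in wt crush: LOC103692220, LOC108351176, LOC102547113, LOC103691688 and LOC102551889.

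Other values moved with the crush in wild-type rats too. Of the 16 clock genes 5 were called higher in wt crush, and their summed level was 1884 to 2039 RPM in wt crush and 1414 to 1855 RPM in wt naive libraries. No marker of cortical glutamatergic neurons or of the pituitary was called. The summed level of the cortical markers was 70.5 to 82.0 RPM in wt crush and 73.2 to 164 RPM in wt naive libraries, with a median log2 change of -0.72 over 7 tested markers. That of 7 pituitary markers was 3.81 to 184 RPM in wt crush and 2.86 to 8.07 RPM in wt naive libraries, with a median of 1.34 over 5 tested. The median log2 change was -0.49 over 6 choroid plexus markers and 0.39 over 17 spiny neuron markers, with none called. The part of these in the members' values was not tested.

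LOC103692220, 315 bp from Rimklb, had 3.38, 3.76 and 4.51 RPM in wt crush against 4.3, 6.11 and 7.31 RPM in wt naive libraries. The groups overlapped only between 4.30 and 4.51 RPM, and the log2 change was -0.54 (SE 0.12, adjusted p = 0.0526). LOC108351176 had 3.09, 3.94 and 4.37 RPM in wt crush against 4.1, 6.1 and 8.39 RPM in wt naive libraries, with -0.55 (SE 0.14, adjusted p = 0.0715). LOC102547113 lies on chromosome 2 just before LOC100911992, the Mir9-1 span, and had 9.2, 9.81 and 10.6 RPM in wt crush against 11.4, 12.9 and 15.5 RPM in wt naive libraries, with -0.40 (SE 0.10, adjusted p = 0.0766).

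For LOC102547113 and LOC100911851 the wild-type groups did not overlap, although no call was made (2 of 200 members, 1%, and 0.648% of all rows). LOC103691688, 905 bp from Prss12, had a log2 change of -0.32 (SE 0.09, adjusted p = 0.0958), and LOC102551889, 60 bp from Prdm9, one of -0.24 (SE 0.07, adjusted p = 0.114). In TG rats the same 5 members had log2 changes of -0.12, 0.09, -0.25, -0.25 and -0.19 in that order. LOC103692220 passed the threshold under 5 alternatives and 7 times when 1 library was left out. With array weights 16 members were called. Leaving out wt naive 196 gave 7 calls, and leaving out wt naive 198 or 200, TG naive 188 or 190, or TG crush 222 or 223 gave 1 or 2. The share of all rows called in these fits is not given here, and 0.159% belongs to the main fit alone. The counts are thus no measure of the members against all rows.

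Between the genotypes no member was called in naive rats by limma or limma-voom, with 0.0329% of all rows called in that comparison (0.0165% higher and 0.0165% lower). At an unadjusted p under 0.05 there were 17 members (8.5%), against 4.98% of all rows. The lowest adjusted p, 0.424, was that of Mir9-3hg with a log2 change of -0.25 (SE 0.07) in TG naive against wt naive libraries, whose values are given above. LOC108351167 followed with 0.16 (SE 0.05, adjusted p = 0.629), LOC102548949, 31 bp from Atp11a, with -0.27 (SE 0.08, adjusted p = 0.705), LOC108352150 with 0.30 (SE 0.10, adjusted p = 0.769) and LOC108352690 with 0.30 (SE 0.11, adjusted p = 0.862). Of the 16 clock genes 2 were called lower in TG naive, with a summed level of 1385 to 1537 RPM there and 1414 to 1855 RPM in wt naive libraries, and their part in the members' values was not tested. Of the 5 members, 3 also passed the test in TG crush against TG naive, a comparison that uses the same TG naive libraries.

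In crush rats no member was called between the genotypes either, by limma or limma-voom, beside 0.00549% of all rows. There were 24 members (12%) at an unadjusted p under 0.05, against 8.06% of all rows. Cell type markers differed in median here too, with none called. The median log2 change was 0.51 over 7 tested cortical markers and -0.24 over 17 spiny neuron markers. It was 0.71 over 4 tested blood markers, 0.62 over 6 choroid plexus markers and -0.46 over 5 tested pituitary markers. The part of these in the members' values was not tested. The 5 members of lowest p were all higher in TG crush than in wt crush. LOC102547322, on the X chromosome, had 5.35, 7.4 and 8.03 RPM in TG crush and 4.3, 5.18 and 6.54 RPM in wt crush libraries, with a log2 change of 0.40 (SE 0.12, adjusted p = 0.557). Ftx, a neighbour of Xist that hosts miR-421 and miR-374, had 6.55, 8.32 and 9.73 RPM in TG crush and 5.42, 6.34 and 6.99 RPM in wt crush libraries, with 0.36 (SE 0.11, adjusted p = 0.58).

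LOC100911221, which starts 255 bp from the transcription factor gene Jun, had 7.56, 9.53 and 11 RPM in TG crush and 6.47, 6.94 and 8.42 RPM in wt crush libraries, with 0.36 (SE 0.12, adjusted p = 0.582). Gas5, a host of small nucleolar RNAs whose level follows growth and translation, had 11.5, 12.4 and 14.5 RPM in TG crush and 8.47, 10.7 and 11.5 RPM in wt crush libraries, with 0.28 (SE 0.09, adjusted p = 0.582). The highest wt crush value of Gas5 and its lowest TG crush value were both near 11.5 RPM. LOC108351176 had 0.44 (SE 0.15, adjusted p = 0.582).

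The interaction asks whether the crush changed a member differently in the 2 genotypes. By limma and by limma-voom no member was called, beside 0.00549% of all rows, and 31 members (15.5%) had an unadjusted p under 0.05, against 7.49% of all rows. The 5 of lowest p were Ftx, LOC100911253, LOC100911221, LOC108351176 and Gas5, all with a positive log2 difference. For Ftx the log2 change was 0.32 in TG and -0.25 in wt rats, a difference of 0.58 (SE 0.15, adjusted p = 0.348). LOC100911253 had 0.36 in TG and -0.20 in wt rats, a difference of 0.56 (SE 0.15, adjusted p = 0.348). The row called in the interaction was 1 of the 16 clock genes. The median log2 difference was 0.78 over 7 tested cortical markers and -0.37 over 17 spiny neuron markers, with none of these called. It was -0.90 over 5 tested pituitary, 0.72 over 4 tested blood and 0.27 over 6 choroid plexus markers, also with none called. The part of clock genes and markers in the members' values was not tested.

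Gas5 had 0.19 in TG and -0.20 in wt rats, a difference of 0.39 (SE 0.12, adjusted p = 0.47). In all 5, the change was positive in TG and negative in wt rats, with neither called. Meg3 had the same pattern of signs, 0.26 in TG and -0.20 in wt rats, with a difference of 0.45 (SE 0.19, adjusted p = 0.624). Its medians in wt crush and wt naive, given above, were equal as rounded, and its highest library was a wt naive one. These tests share the 4 groups with the comparisons above and add no libraries.

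Members on the lists of known lncRNAs gave 2 calls in TG crush against TG naive, Bc1 and Mir9-3hg, where 3.08% of all rows were called. They gave none in the other comparisons, where 0.159% (wt crush against wt naive), 0.0329% (TG naive against wt naive) and 0.00549% (TG crush against wt crush, and the interaction) of all rows were called. Of the nuclear RNAs, Tug1 had a log2 change in TG crush against TG naive of 0.27 (SE 0.10, adjusted p = 0.114) and Miat of 0.13 (SE 0.19, adjusted p = 0.769). Among the neural lncRNAs, Oip5-as1 had 0.16 (SE 0.07, adjusted p = 0.208) and Pantr1, near the neural factor gene Pou3f3, 0.02 (SE 0.10, adjusted p = 0.944). Of 8 neural lncRNAs tested, 1 was lower (Bc1) and none higher, with a median of 0.15. Of 3 microRNA hosts on the list, 1 was higher (Mir9-3hg) and none lower, with a median of 0.32, against -0.01 over all rows. That list leaves out LOC100911992, LOC102547903 and Lnc215, which also hold microRNA genes. Of these, LOC100911992 and LOC102547903 were lower in sign, so the median does not stand for all members with microRNA genes. The lists were chosen with earlier results of these data known and are not independent evidence.

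Lnc215, which carries let-7a and miR-100 as shown above, had 14.7, 17.1 and 23 RPM in TG crush and 13.1, 15.9 and 19.4 RPM in TG naive libraries, with 0.18 (SE 0.13, adjusted p = 0.471). Mtln had 11.6, 12.5 and 14.4 RPM in TG crush and 12.6, 14.1 and 15.7 RPM in TG naive libraries, with -0.14 (SE 0.06, adjusted p = 0.186). For both members TG crush and TG naive overlapped. Silc1, named for an injury response of sensory neurons after sciatic nerve injury in mouse, where it acts on the gene of the transcription factor Sox11, had 7.12, 8.02 and 12.9 RPM in TG crush and 6.93, 8.59 and 10.3 RPM in TG naive libraries.

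In wild-type rats Silc1 had 7.03, 9.24 and 11.3 RPM in wt crush and 8.28, 8.99 and 10.8 RPM in wt naive libraries. The log2 changes of Silc1 were 0.02 (SE 0.11, adjusted p = 0.942) in TG and -0.02 (SE 0.11, adjusted p = 0.946) in wt rats, and all 4 groups overlapped. Sox11 averaged 6.16 ± 1.43 RPM in TG crush, 5.63 ± 1.51 in TG naive, 4.68 ± 0.683 in wt crush and 5.75 ± 1.25 in wt naive libraries (SD, n = 6, 8, 6 and 8). Silc1 was singled out for its name, after its values were seen.

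No gene was called in any of the 5 comparisons on 3 lists of proteins that bind or degrade RNA: 15 paraspeckle proteins (such as Nono and Sfpq), 14 factors of nonsense-mediated decay (such as Upf1) and 15 subunits and adaptors of the nuclear exosome (such as Exosc10). On a separate list of 16 protein-coding genes from imprinted domains 12 could be tested, and none of those was called either. In TG crush against TG naive the median log2 change of these lists was 0.04, -0.02, -0.04 and 0.04 in that order, against -0.01 over all rows.

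The spread between libraries of one group, as the SD within groups on log2 (RPM + 0.5), had a median of 0.202 over the 200 members and of 0.137 over the 11936 protein-coding rows that lie anywhere in the members' range of RPM. Those rows are not matched on level. Under 10 RPM the median was 0.22 over 112 members and 0.179 over 1983 protein-coding rows, and from 10 RPM up it was 0.183 over 88 members and 0.128 over 9953 rows, given as a description. In 84 members the highest library was at least 2 times the lowest, in 7 at least 5 times, and in none 10 times. The 8 most variable members were LOC102552421, LOC108350689, LOC108351665, LOC102548116, LOC102548357, LOC108351027, LOC108351305 and LOC108351704, with SDs from 0.424 to 0.734.

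**Figure D4:**
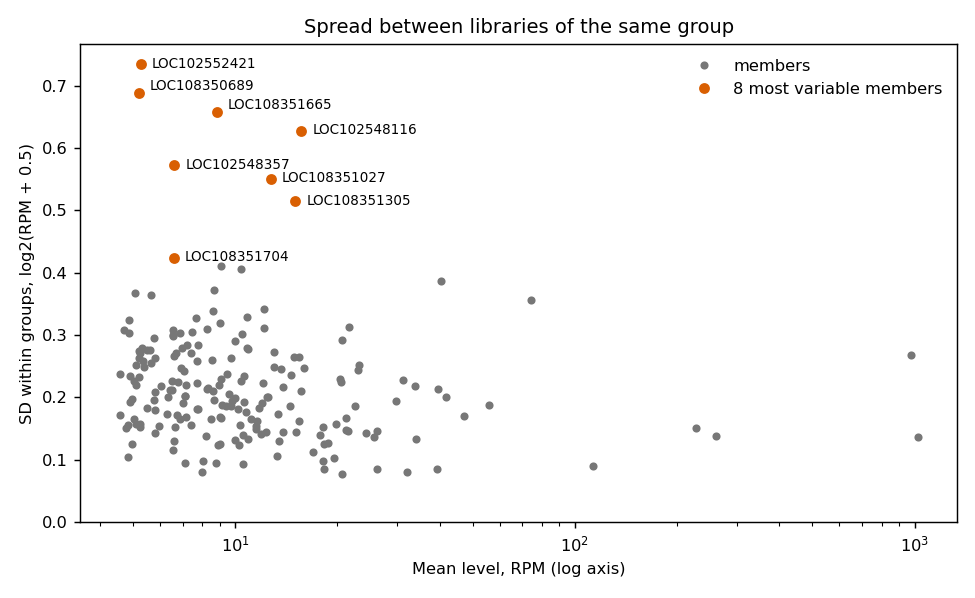
SD of log2 (RPM + 0.5) between libraries of the same group against the mean level in RPM (log axis) for the 200 members. The 8 most variable members, in orange, lie between 5.22 and 15.7 RPM with SDs of at least 0.424, and the members above 100 RPM have SDs up to 0.268.

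Of these 8, 5 rose and 1 fell across libraries with the level of spiny projection neuron markers. Against the level of the 17 markers of these cells (mean of their log2 values), as deviations from the group means over 28 libraries, LOC108351665 had r = 0.945 and rho = 0.925, LOC108350689 had r = 0.927 and rho = 0.946, and LOC108351704 had r = 0.881 and rho = 0.868 (permutation p 1e-05 for each r and rho, the smallest possible, adjusted 1.7e-05). LOC108351027, antisense to Heyl, had r = 0.867 and rho = 0.852, with a permutation p of 2e-05 for each and an adjusted p of 2.9e-05. LOC102548116 had r = 0.791 and rho = 0.818, with a permutation p of 1e-05 for each and an adjusted p of 1.7e-05.

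LOC102548357 ran the other way, with r = -0.51 (permutation p = 0.0089, adjusted 0.011) and rho = -0.54 (permutation p = 0.0054, adjusted 0.0067). LOC102552421, with r = 0.314 (permutation p = 0.17) and rho = 0.357 (0.094), and LOC108351305, with r = 0.376 (0.073) and rho = 0.313 (0.13), did not pass. Without wt naive 199 and TG crush 223, the 2 libraries farthest out in the marker level, the r of the 5 members in the paragraph above lay between 0.791 and 0.941, and that of LOC102548357 was -0.54. The marker level itself was 8.35 to 9.26 in TG crush, 8.42 to 9.18 in TG naive, 9.10 to 9.28 in wt crush and 8.25 to 9.28 in wt naive libraries, and so was highest and narrowest in wt crush.

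LOC102548116 starts 173 bp from Pou3f1, a transcription factor gene, on the opposite strand. It had 7.53, 10.8 and 32.9 RPM in TG crush, 5.83, 13.5 and 28.1 in TG naive, 13.9, 23.4 and 31.6 in wt crush and 6.85, 11.5 and 23.8 in wt naive libraries. Pou3f1 averaged 33.8 ± 17 RPM in TG crush, 30.1 ± 12.5 in TG naive, 48.5 ± 10.6 in wt crush and 27.5 ± 13.7 in wt naive libraries. Over the 28 libraries the 2 genes had r = 0.946 and rho = 0.930, each with a permutation p of 1e-05 (adjusted 1.7e-05). Without the 2 libraries farthest out in Pou3f1, TG naive 192 and TG crush 223, r was 0.937. The pair was singled out, and no other variable member was correlated with its neighbour. The log2 change of LOC102548116 in wt crush against wt naive was 0.91 (SE 0.31, adjusted p = 0.144), the largest of a member there, and it did not pass.

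**Figure D5:**
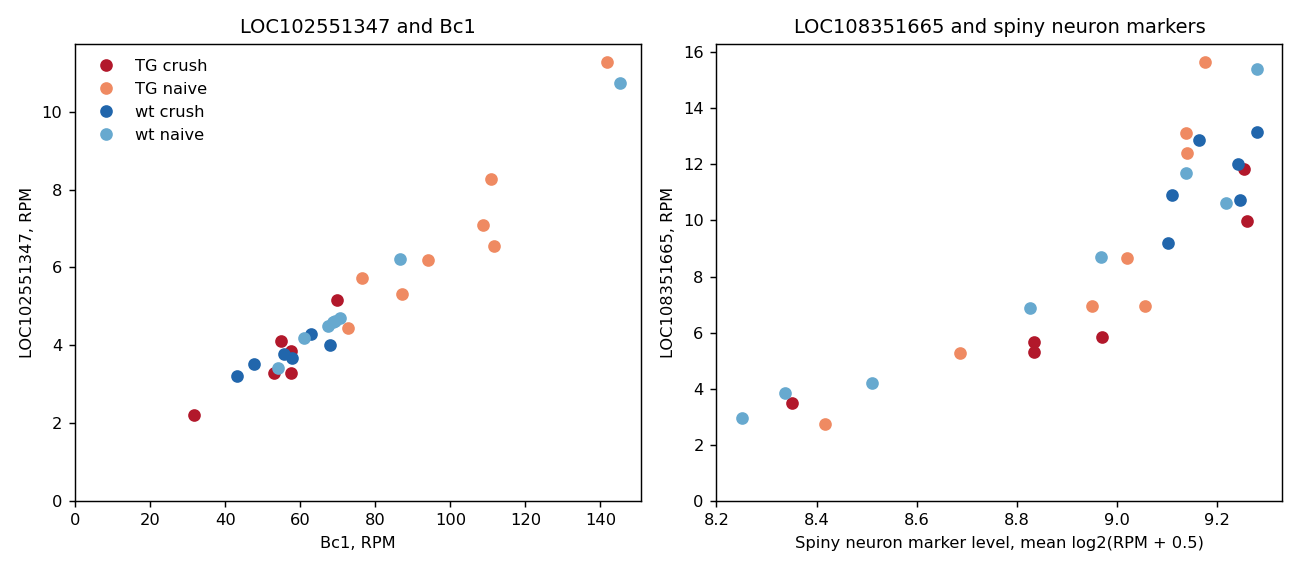
Left, LOC102551347 against Bc1 in RPM, and right, LOC108351665 in RPM against the level of 17 spiny neuron markers (mean log2), 1 point per library in the colours of the 4 groups. In both panels the points rise together, with r = 0.943 on the left and r = 0.945 on the right after the group means are taken out.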

How the data were processed

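Striatal RNA of 28 samples went through a stranded mRNA kit and 2 runs of single-end sequencing (75 nt), per the labels' protocols. The labels do not tie libraries to runs. STAR 2.6.1a, featureCounts of Subread 1.6.3, DESeq2 1.22.2 and the build Rnor_6.0 are named in the submitters' processing notes. The deposited table holds RPKM of 39538 genes with decimal commas, for which its unit was recorded as other. The length used by the authors was the span with introns in every row. RPKM times length in kilobases, called RPM, summed to 1000000 in each library and gave whole reads, within 0.02, for 100% of values.

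Rows with at least 0.5 RPM in at least 6 libraries were tested (18222 rows, all 200 members) by limma 3.58.1 in R 4.3.3, with log2 (RPM + 0.5) modelled on the 4 groups and a mean-dependent prior variance. The 5 comparisons were adjusted by Benjamini-Hochberg over all rows, and a call is an adjusted p under 0.05. RPM was taken in place of RPKM because a minimum on RPKM per span would drop long members. The same code was first checked against simulated reads whose changes were known. Permutations for the 10 relations shuffled libraries within groups (scipy 1.17.1). All these permutation tests were two-sided. Plots used Python 3.11.15 and matplotlib 3.10.9.

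The members, lists and named genes were chosen with earlier results of these data known. Named were the 20 members with most reads, the called members, the 5 of lowest p where fewer than 5 were called, the 8 of largest spread, members on the lists, the rows beside the limit and the protein-coding neighbours within 5000 bp. Names and sequences were matched to RefSeq GRCr8 by gene ID, and 96 members had no entry. Alternatives were 2 pseudocounts, 2 filters, the RPKM scale, 2 other normalizations, limma-voom on whole reads, array weights, robust variances, a spiny neuron covariate, fits on the compared groups alone, and leaving out libraries.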

Additional observations from a re-analysis of the deposited data

Results flagged for a closer look

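Of 140 sets of 1 member in 1 group (35 members with most reads, a call or the largest spread, in 4 groups), 6 had a library far from the rest of its group by Dixon's test, which chance gives in about 1 of 20 sets. Bc1 stood at 145 RPM in wt naive 197, where the other wt naive libraries had 54.1 to 86.7 RPM. LOC102551347 was at 10.7 RPM in the same library, against 3.42 to 6.22 RPM in the others. Wt naive 197 is also 1 of the 5 libraries above 20 RPM of Slc17a7. Mir9-3hg (LOC102555346) had 43.2 RPM in TG crush 214, where the others had 35.4 to 36.5 RPM, and LOC102548116 had 32.9 RPM in that library, against 7.53 to 14.4 RPM. LOC103691644 had 40.6 RPM in wt crush 203, against 27.8 to 31.6 RPM in the others. LOC108350689 was low in wt crush 207, at 4.53 RPM, against 6.81 to 7.17 RPM.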

How the results depend on the processing

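The 11 calls in TG crush against TG naive became 30 with array weights, 17 when the level of spiny neuron markers entered the model, 7 without the 5 libraries over 20 RPM of Slc17a7 and 5 with the compared groups alone. The other 9 alternatives gave 9 to 14 calls. Leaving out 1 library at a time gave 6 to 19, with 6 without TG crush 222 and 19 without TG crush 223 or TG crush 226. In wt crush against wt naive the count of 0 became 1 with a pseudocount of 0.1, with the filter of 1 RPM in 14 libraries, on the RPKM scale, with median-of-ratios rescaling and with the compared groups alone, and 16 with array weights, and it was 0 to 7 with 1 library left out. In the other 3 comparisons it stayed 0 throughout. No sign of a called member turned, and 4 of the 11 were called in every setting. On the RPKM scale 134 members could be tested, and the interaction cannot be fitted with the compared groups alone. No paired analysis was possible because the groups share no replicate numbers. These counts are given without the share of all rows called in the same fits. They therefore cannot tell a shift in the members from a shift in all rows. The cause of these shifts was not tested. Members near 5 RPM rest on fewer reads, and mRNA libraries miss RNA without a poly(A) tail.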
